A study of Homo sapiens with 6 samples.

Results

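YAP1 and WWTR1, which encode the coactivators YAP and TAZ, the DNA-binding factors TEAD1, TEAD2, TEAD3 and TEAD4, and the target genes CCN1, CCN2, ANKRD1 and AMOTL2 were examined in a clear cell renal cell carcinoma line. These 10 genes were chosen by name and matched through Ensembl identifiers to a table of 16922 genes. TEAD2 was not analysed here, which leaves 9 genes, 5 factors and 4 targets, all among the 16901 genes with enough reads for a test. Bulk RNA was sequenced from 786-O FOXD1null, a derivative whose genotype label is FOXD1 null, and from 786-O, with 3 libraries per line. The 786-O line is an established human ccRCC line labelled parental. The study's methods call these total RNA libraries. FOXD1 encodes a forkhead transcription factor, and the comparison asks which RNAs differ between the FOXD1null line and its parent. Both lines were grown in the same medium with fetal bovine serum to 70% confluency, and the labels name no treatment. The sources used here do not say whether the FOXD1null line is 1 clone. The series calls the libraries of a line biological triplicates but does not say that they came from separate cultures, so p-values cover the spread from library to library alone, and that spread may be technical.

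YAP and TAZ do not bind DNA themselves and reach their target genes by binding a TEAD protein. Of the Hippo kinases, MST acts on LATS, and LATS phosphorylates YAP and TAZ and so holds them in the cytoplasm. Cell spreading and low cell density favour the entry of YAP and TAZ into the nucleus. The secreted matricellular proteins of CCN1 (CYR61) and CCN2 (CTGF), the muscle ankyrin repeat protein of ANKRD1 and the angiomotin family protein of AMOTL2 are often read at the RNA level as a measure of this activity, and AMOTL2 protein in turn binds and restrains YAP.

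The libraries held 30982463 to 37843830 reads in genes. FOXD1, the gene of the label, had 1277, 1048 and 901 normalized counts in replicates 1, 2 and 3 labelled FOXD1null, against 432, 498 and 480 in 786-O, a log2 fold change of 1.18 (adjusted p = 3.9e-04, limma). More FOXD1 RNA is not what the label leads a reader to look for, so these are named as libraries labelled FOXD1null, and higher or lower always follows the label. Counts per gene do not show whether this RNA can give a working protein, and the genotype was not tested here. FOXD1-AS1 overlaps FOXD1 on the opposite strand, and without the strand setting of the counting their reads cannot be told apart. Replicate 1 labelled FOXD1null stood apart from its group, with a median distance of 0.27 on the log2 scale from the mean of replicates 2 and 3 over all genes, where replicates 2 and 3 differed from each other by 0.09. Results are therefore also given without it. Of 8 markers of renal carcinoma lines, among them PAX8, PAX2, VIM and KRT8, all 8 were measured. Their summed normalized counts were 214190 to 239800 in the libraries labelled FOXD1null and 167590 to 173090 in 786-O. VIM made up most of these sums, with means of 164460 in the libraries labelled FOXD1null and 118730 in 786-O. Tested singly by limma as described below, 3 of the 8 passed higher, 1 passed lower and 4 did not pass. Of all genes 16.3% passed higher and 17.1% lower. The lower marker was PAX2, at a log2 fold change of -0.35 (adjusted p = 0.011, limma), so the markers did not move together. Without replicate 1 labelled FOXD1null 4 of the 8 passed higher and 2 lower, where 27.4% and 27.7% of all genes did. Of 6 fibroblast markers 3 were measured, with sums of 262 to 403 in the libraries labelled FOXD1null and 677 to 825 in 786-O. COL1A1 made up most of these sums, with means of 316 in the libraries labelled FOXD1null and 632 in 786-O. It passed lower at -1.01 (adjusted p = 0.0011, limma) and LUM at -5.38 (0.0052), so 2 of the 3 passed lower, where 17.1% of all genes did. LUM was at 0 in replicates 2 and 3 labelled FOXD1null, and COL3A1 was at 0 in the same 2 libraries and in 786-O replicate 1. The part of fibroblast markers in the results was not tested, and markers of endothelial cells and leukocytes were not analysed here.

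The promoters of CCN2 and ANKRD1 are shown because both carry the letters that TEAD proteins bind, while CCN2 passed the test of its RNA and ANKRD1 did not. RefSeq (build GRCh38.p14) gave promoter windows for 7 of the 10 genes, 6 of them in the count table. CCN1, TEAD1 and TEAD4 had no window in the set used here and were not searched. In each window the 250 bases before the start were searched on both strands for CATTCC, the TEAD core, GTAAACA, the forkhead core, TGANTCA, the AP-1 motif, and the CArG box of SRF. Both sequences below run 5′ to 3′ on the minus strand, and capitals mark the TEAD core, which reads GGAATG when it lies on the opposite strand.
CCN2 promoter, chr6:131951373-131951622: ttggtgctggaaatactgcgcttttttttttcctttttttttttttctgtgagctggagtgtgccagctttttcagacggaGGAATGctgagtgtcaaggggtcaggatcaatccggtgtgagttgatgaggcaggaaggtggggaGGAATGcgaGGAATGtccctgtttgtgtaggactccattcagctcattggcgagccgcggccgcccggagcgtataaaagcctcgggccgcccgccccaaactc
ANKRD1 promoter, chr10:90921088-90921337: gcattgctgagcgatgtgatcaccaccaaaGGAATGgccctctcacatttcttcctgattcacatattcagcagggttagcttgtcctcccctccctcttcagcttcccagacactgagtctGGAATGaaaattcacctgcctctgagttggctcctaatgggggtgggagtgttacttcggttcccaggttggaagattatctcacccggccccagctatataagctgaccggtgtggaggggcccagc
CCN2 held 3 TEAD cores, from base 169 to 164, 104 to 99 and 95 to 90 before its start. ANKRD1 held 2, from base 220 to 215 and 128 to 123, and 1 AP-1 match from base 195 to 189 that overlaps neither. Of 35116 windows of the same length, 11.9% held a TEAD core, 6.57% an AP-1 match, 2.98% a forkhead core and 1.16% a CArG box.

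Single matches in 3 other genes are shown with the bases around them, again with the core in capitals.
YAP1, TEAD core, chr11:102110273-102110302, plus strand: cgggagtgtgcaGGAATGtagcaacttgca
AMOTL2, TEAD core, chr3:134374499-134374528, minus strand: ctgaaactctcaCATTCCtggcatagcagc
WWTR1, forkhead core, chr3:149703309-149703338, minus strand: gtcattatagatGTAAACAacatgtgtgct
YAP1 and 1 of the 2 windows of AMOTL2 each held 1 TEAD core. GTAAACA was found in 1 of the 2 windows of WWTR1, from base 53 to 47 before that start, and neither window of WWTR1 held a TEAD core. Both windows of WWTR1, and the window of AMOTL2 with the TEAD core, lie inside the annotated span of their gene and overlap its annotated exons. The WWTR1 window with the forkhead core spans 149703274 to 149703523, while the annotated 5′ end of WWTR1 is at 149736714. These windows are thus not those of the outermost annotated start. The window of TEAD3 held none of the 4 motifs. A match describes letters in the sequence and does not show that a factor binds there.

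WWTR1, CCN1, CCN2 and AMOTL2 had less RNA in the libraries labelled FOXD1null than in 786-O. In group means, WWTR1 fell by 42.2%, AMOTL2 fell by 32.3%, CCN1 fell by 31.9% and CCN2 fell by 22.7%. YAP1, TEAD1, TEAD3, TEAD4 and ANKRD1 did not pass the test in either direction. The threshold was an adjusted p of 0.05 by limma on log2(normalized count + 1), adjusted over all 16901 genes, and a log2 fold change here is the mean in the libraries labelled FOXD1null minus that in 786-O on this scale. Thus 4 of 9 genes passed lower, where 17.1% of all genes did, and 0 of 9 passed higher, where 16.3% of all genes did (33.4% in either direction). By edgeR and DESeq2 on recovered reads 0 of 9 passed higher too, where 2705 and 2930 of 16901 genes did. No gene of the 9 was higher at an unadjusted p under 0.05 by limma, edgeR or DESeq2 (0 of 9 each). The share of all genes at that unadjusted threshold was not counted. With libraries scaled to equal totals 2040 of all genes passed higher and 3878 lower, in place of 2751 and 2888, and the same 4 genes passed. For the same 4 genes every library labelled FOXD1null lay below every 786-O library, as for 24.9% of all genes tested (49.0% in either direction). With 3 libraries against 3, an exact permutation test (two-sided) of 1 gene cannot give a p under 0.1, which is what each of the 4 reached. The median log2 fold change was -0.15 over the 9 genes and -0.01 over all genes tested. Without replicate 1 labelled FOXD1null 5 of the 9 genes passed lower and 1 higher, where 27.7% and 27.4% of all genes did.

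**Figure D1:**
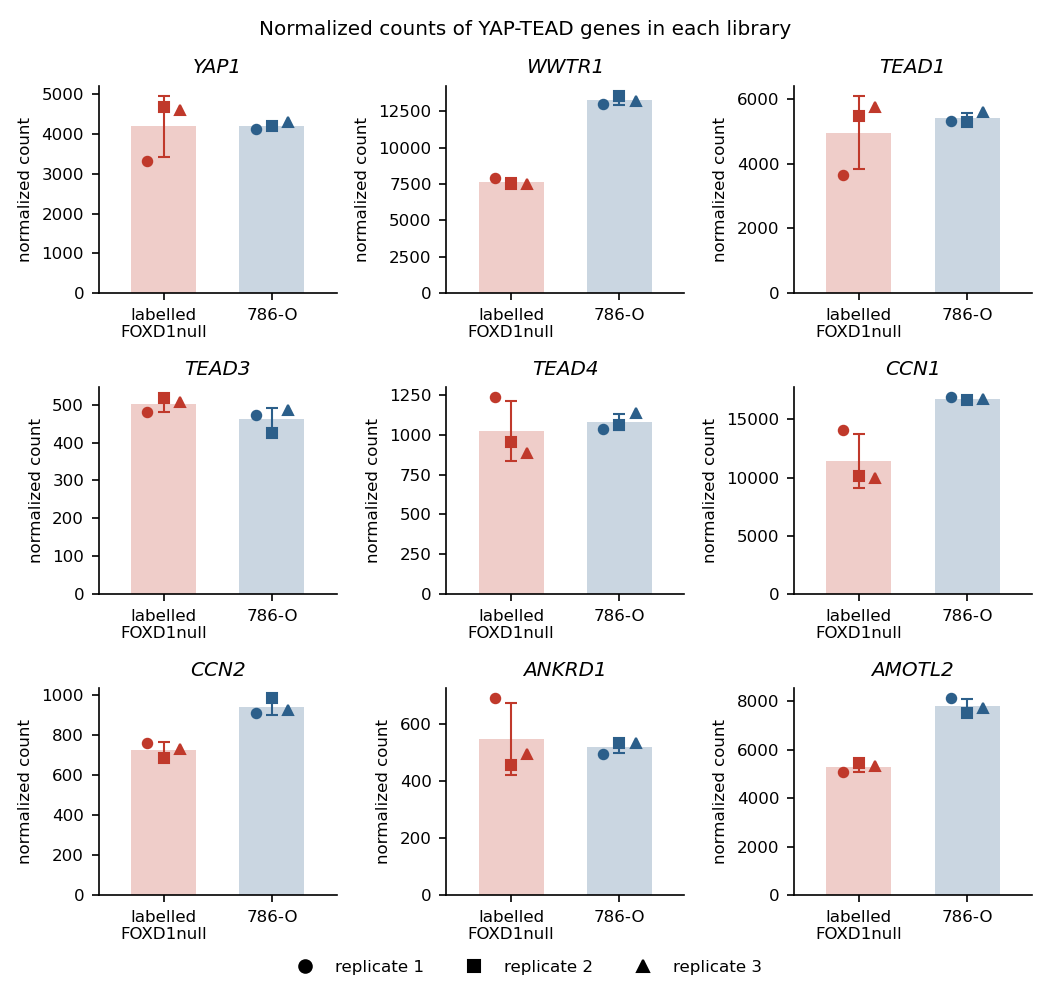
Normalized counts (vertical axes, from 0) of the 9 genes in each library, with replicates as separate symbols and bars and error bars for the mean and SD of 3 libraries, those labelled FOXD1null on the left and 786-O on the right. The groups do not overlap for WWTR1, CCN1, CCN2 and AMOTL2, and replicate 1 labelled FOXD1null (circle) lies away from replicates 2 and 3 for YAP1, TEAD1, TEAD4, CCN1 and ANKRD1.

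WWTR1 (ENSG00000018408, chromosome 3, 149517235 to 149736714 of hg38, minus strand) encodes TAZ, the paralog of YAP. It had 7940, 7502 and 7532 normalized counts in replicates 1, 2 and 3 labelled FOXD1null, against 13006, 13570 and 13201 in 786-O. All 3 libraries labelled FOXD1null lay well under the lowest 786-O library, and replicate 1 stood close to the other 2. The means were 7658 ± 245 and 13259 ± 286 (SD, n = 3 each), a log2 fold change of -0.79 (standard error 0.06, 95% confidence interval -0.93 to -0.66, adjusted p = 7.5e-05, limma). It was -0.82 without replicate 1 labelled FOXD1null. The span of WWTR1 also holds WWTR1-IT1 on its own strand and WWTR1-AS1 on the opposite one, and as no source used here gives the strand setting of the counting, reads shared with WWTR1-AS1 cannot be told apart. In bulk RNA, fewer cells with an RNA and less of it per cell cannot be told apart either.

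YAP1 (ENSG00000137693, chromosome 11, 102110447 to 102233424, plus strand) had 3319, 4672 and 4608 normalized counts in the libraries labelled FOXD1null, against 4129, 4207 and 4302 in 786-O. Replicate 1 labelled FOXD1null was below every 786-O library and replicates 2 and 3 were above every one. The log2 fold change was -0.02 (95% confidence interval -0.31 to 0.27, adjusted p = 0.91, limma). Without replicate 1 labelled FOXD1null YAP1 passed at 0.14 (adjusted p = 0.0063, limma, the lowest of its alternatives, which reached 0.99), so that both the sign and the call rest on that library.

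Between genes, levels were set per kilobase of exon, the summed length of all annotated exons. On this scale WWTR1 stood at 917 ± 29.3 in the libraries labelled FOXD1null and 1587 ± 34.3 in 786-O, while YAP1 stood at 665 ± 121 in the libraries labelled FOXD1null and 668 ± 13.7 in 786-O (SD, n = 3 each). WWTR1 was thus the more abundant coactivator RNA in all 6 libraries. The share of YAP1 in the sum of both was 35.6%, 45.2% and 44.7% in replicates 1, 2 and 3 labelled FOXD1null, against 29.6%, 29.1% and 30.1% in 786-O. It was higher in each library labelled FOXD1null than in any 786-O library (p = 0.1 by an exact permutation test, two-sided, the floor with n = 3 each). The summed level of YAP1 and WWTR1 was 1476, 1638 and 1632 per kilobase in the libraries labelled FOXD1null and 2211, 2291 and 2262 in 786-O, again without overlap. Their means of 1582 ± 91.7 and 2255 ± 40.4 differed by -0.51 on the log2 scale (exact permutation test, two-sided, p = 0.1). Both the share and the sum contain the WWTR1 values, while YAP1 had like means in both groups. They are thus not results separate from the lower WWTR1.

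**Figure D2:**
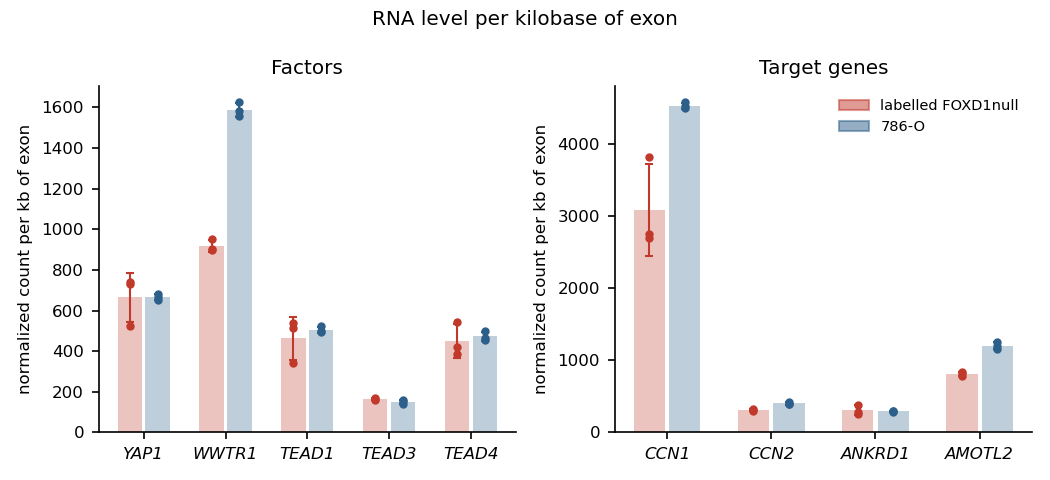
RNA level in normalized counts per kilobase of exon (vertical axes, from 0) of the 5 factors on the left and the 4 target genes on the right, with the libraries labelled FOXD1null left of 786-O. Bars and error bars are the mean and SD of 3 libraries and points are libraries: WWTR1 is the most abundant factor at 917 in the libraries labelled FOXD1null and 1587 in 786-O, and CCN1 the most abundant target at 3085 in the libraries labelled FOXD1null and 4530 in 786-O.

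TEAD1 (ENSG00000187079, chromosome 11, 12674421 to 12944737, plus strand), a TEAD factor expressed in many tissues, had 3662, 5487 and 5746 normalized counts in the libraries labelled FOXD1null, against 5338, 5284 and 5593 in 786-O. Replicate 1 labelled FOXD1null was the lowest of the 6 libraries, while replicates 2 and 3 lay within or just above the 786-O range. Its log2 fold change was -0.15 (95% confidence interval -0.51 to 0.21, adjusted p = 0.50, limma) and 0.06 without that library. TEAD4 (ENSG00000197905, chromosome 12, 2959330 to 3040676, plus strand), known from mouse as a factor needed for the first extraembryonic lineage, had 1236, 953 and 884 normalized counts in the libraries labelled FOXD1null, against 1037, 1061 and 1134 in 786-O. Here replicate 1 labelled FOXD1null was the highest of the 6 libraries and replicates 2 and 3 were the lowest. At -0.09 (95% confidence interval -0.37 to 0.20, adjusted p = 0.64, limma) TEAD4 did not pass. It passed at -0.23 without replicate 1 labelled FOXD1null (adjusted p = 0.0043, limma, the lowest of its alternatives, which reached 0.95) and stood at 0.01 without replicate 3 labelled FOXD1null.

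TEAD3 (ENSG00000007866, chromosome 6, 35473597 to 35497079, minus strand), best known from placenta, was the least abundant TEAD RNA. It had 480, 517 and 506 normalized counts in the libraries labelled FOXD1null, against 472, 426 and 485 in 786-O. The groups overlapped by a single pair, since replicate 1 labelled FOXD1null lay under 786-O replicate 3. Its log2 fold change of 0.12 (95% confidence interval -0.08 to 0.32, adjusted p = 0.32, limma) did not pass, and it was 0.15 without replicate 1 labelled FOXD1null.

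Per kilobase of exon, the levels in the libraries labelled FOXD1null were 464 ± 106 for TEAD1, 450 ± 82.1 for TEAD4 and 164 ± 6.34 for TEAD3 (SD, n = 3). In 786-O they were 505 ± 15.4 for TEAD1, 474 ± 22.3 for TEAD4 and 151 ± 10.1 for TEAD3 (SD, n = 3). TEAD1 and TEAD4 differed by less than the spread of either in the libraries labelled FOXD1null, and TEAD3 was below both in every library. Summed over the 3 genes the level was 1043, 1101 and 1091 per kilobase in the libraries labelled FOXD1null, against 1109, 1100 and 1180 in 786-O. The groups overlapped, and the means of 1079 ± 31.2 and 1130 ± 43.95 differed by -0.07 on the log2 scale (exact permutation test, two-sided, p = 0.2). The make-up of the sum was uneven within the libraries labelled FOXD1null. Over all genes, replicate 1 of this group departed from replicates 2 and 3 with exon length, as given below. TEAD4 has 2275 exon bases and TEAD1 has 10700, and the part of that trend in the shares was not tested. TEAD4 took 52.1% of the sum in replicate 1, 38.0% in replicate 2 and 35.6% in replicate 3, against 41.1%, 42.4% and 42.2% in 786-O. TEAD1 took 32.8%, 46.6% and 49.2% in the libraries labelled FOXD1null, against 45.0%, 44.9% and 44.3% in 786-O. TEAD3 took 15.1%, 15.4% and 15.2% in the libraries labelled FOXD1null, against 14.0%, 12.7% and 13.5% in 786-O. Only the TEAD3 share did not overlap between the groups (exact permutation test, two-sided, p = 0.1, the floor).

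CCN1 (ENSG00000142871, chromosome 1, 85580761 to 85584589, plus strand) was the most abundant of the 9 RNAs per kilobase, at 3085 ± 633 in the libraries labelled FOXD1null and 4530 ± 41.0 in 786-O (SD, n = 3 each). It had 14109, 10150 and 9965 normalized counts in replicates 1, 2 and 3 labelled FOXD1null, against 16911, 16610 and 16733 in 786-O. Every library labelled FOXD1null was below every 786-O library, with replicate 1 the nearest to 786-O. The log2 fold change was -0.57 (standard error 0.13, 95% confidence interval -0.86 to -0.28, adjusted p = 0.0093, limma). With single libraries left out it ran from -0.74, without replicate 1 labelled FOXD1null, to -0.49, and passed each time. CCN2 (ENSG00000118523, chromosome 6, 131948176 to 131951372, minus strand) had 762, 687 and 732 normalized counts in the libraries labelled FOXD1null, against 911, 985 and 926 in 786-O. Its groups did not overlap, and all 3 libraries labelled FOXD1null lay close together. The log2 fold change of -0.37 (standard error 0.08, 95% confidence interval -0.55 to -0.20, adjusted p = 0.0071, limma) ran from -0.41 to -0.33 with single libraries left out and passed each time. LINC01013 runs across CCN2 on the opposite strand, and its reads cannot be told apart from those of CCN2 without the strand setting.

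AMOTL2 (ENSG00000114019, chromosome 3, 134355347 to 134375479, minus strand) had 5065, 5443 and 5324 normalized counts in the libraries labelled FOXD1null, against 8130, 7525 and 7724 in 786-O. Its groups were well separated. The log2 fold change was -0.56 (standard error 0.06, 95% confidence interval -0.71 to -0.42, adjusted p = 4.1e-04, limma) and -0.53 without replicate 1 labelled FOXD1null. The pseudogene RPL39P5 overlaps the 3′ end of AMOTL2 on the same strand.

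ANKRD1 (ENSG00000148677, chromosome 10, 90912096 to 90921087, minus strand), whose promoter carries 2 TEAD cores, had 692, 457 and 497 normalized counts in the libraries labelled FOXD1null, against 497, 533 and 534 in 786-O. Replicate 1 labelled FOXD1null was the highest of the 6 libraries and replicate 2 the lowest. At 0.05 (95% confidence interval -0.29 to 0.39, adjusted p = 0.83, limma) it did not pass. The sign turned without replicate 1 labelled FOXD1null (-0.13) and with libraries scaled to equal totals (-0.04). Per kilobase, the levels in the libraries labelled FOXD1null were 311 ± 16.1 for CCN2, 307 ± 70.3 for ANKRD1 and 814 ± 29.8 for AMOTL2 (SD, n = 3). In 786-O they were 402 ± 16.7 for CCN2, 291 ± 11.99 for ANKRD1 and 1203 ± 47.6 for AMOTL2 (SD, n = 3), so that AMOTL2 was the second most abundant target in both groups.

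**Figure D3:**
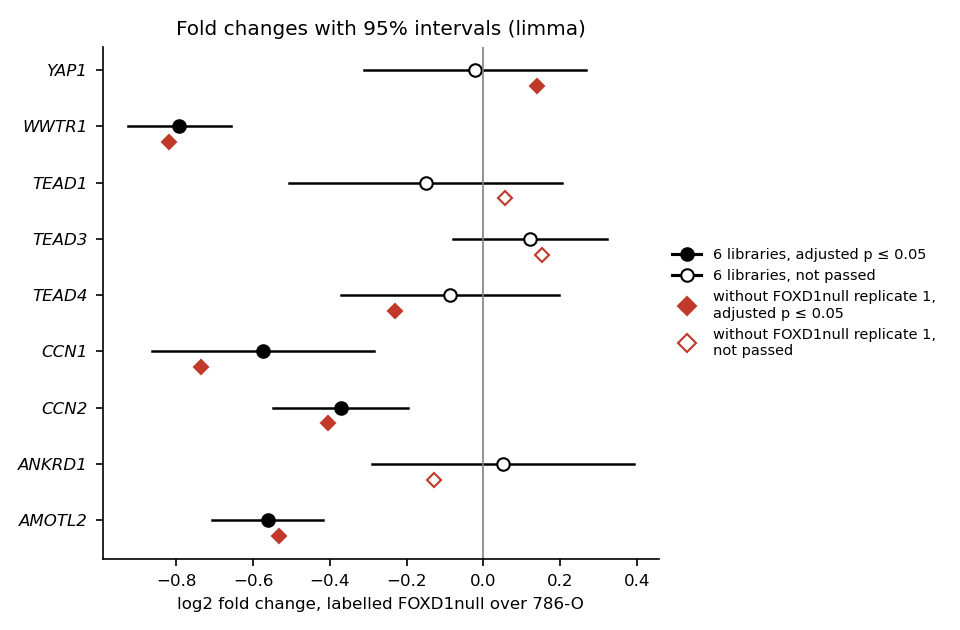
Log2 fold change (horizontal axis, above 0 where the libraries labelled FOXD1null are higher) for each gene, with circles and 95% confidence intervals from limma over 6 libraries and diamonds for the value without replicate 1 labelled FOXD1null, filled where the adjusted p is at or under 0.05. WWTR1, CCN1, CCN2 and AMOTL2 are filled and below 0 both ways, while YAP1 at 0.14 and TEAD4 at -0.23 are filled only as diamonds.

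The distance of replicate 1 labelled FOXD1null from replicates 2 and 3 differed between these genes and moved with exon length over all genes. With genes split by exon length into 4 classes of like size, that library was higher by a median of 0.18 on the log2 scale in the shortest class, up to 2420 bases. The median was 0.10 in the next class, -0.02 in the one after it and -0.16 in the longest, of at least 7421 bases. In 786-O, the same measure for replicate 1 stayed within 0.01 of 0 in each class. Among the 9 genes it was 0.54 for ANKRD1 with 1790 exon bases, 0.43 for TEAD4 with 2275, 0.49 for CCN1 with 3698, -0.48 for YAP1 with 6311 and -0.62 for TEAD1 with 10700. WWTR1, CCN2, TEAD3 and AMOTL2 had values from -0.09 to 0.10. With the trend on exon length removed, an alternative chosen after seeing the data, the same 4 genes passed and ANKRD1 stood at -0.00.

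**Figure D4:**
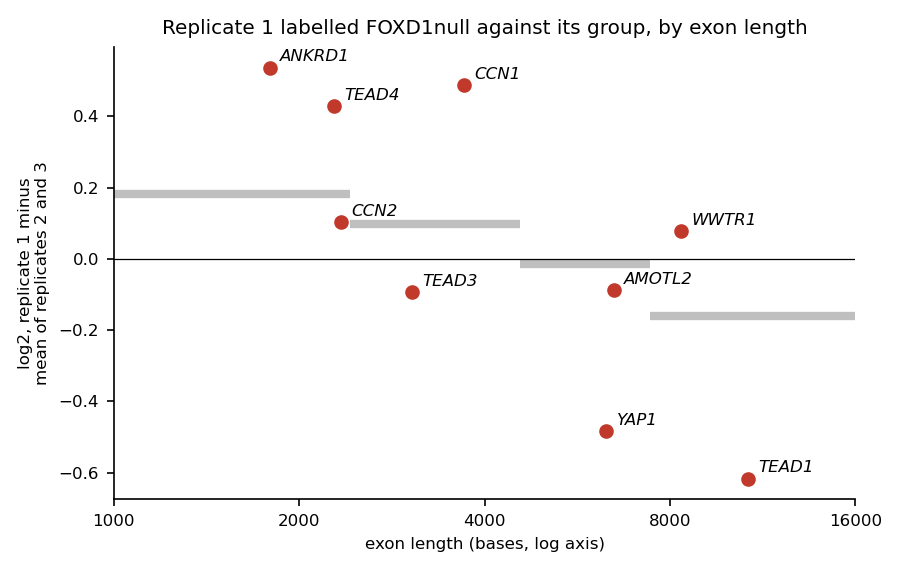
Replicate 1 labelled FOXD1null minus the mean of replicates 2 and 3 of its group (vertical axis, log2 of normalized count + 1) against exon length in bases (horizontal log axis), with points for the 9 genes and grey bars for the median over all genes of each length class, the outer bars being trimmed to the axis. Medians go down over the classes as 0.18, 0.10, -0.02 and -0.16, while the points range between 0.54 for ANKRD1 and -0.62 for TEAD1.

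The kinases that restrain YAP and TAZ and the proteins that activate them were followed in a list of 17 genes. Of these 4 passed higher and 4 lower, where 16.3% and 17.1% of all genes tested did. The median log2 fold change of the list was -0.15, and -0.05 without replicate 1 labelled FOXD1null. Over all genes tested the median was -0.01, and -0.004 without that library. The calls that follow are those with all 6 libraries. Higher were TAOK3, a kinase that activates MST kinases, at 0.74 (adjusted p = 2.2e-04, limma), MAP4K4, a kinase that acts beside MST on LATS, at 0.62 (3.7e-04), and the scaffold gene WWC3 at 0.52 (0.046). Lower were the scaffold gene WWC2 at -0.85 (1.0e-04), TAOK1, another activator of MST kinases, at -0.54 (0.024), and NF2, whose product merlin recruits LATS to the membrane, at -0.51 (0.015). WWC1, which encodes the scaffold KIBRA, at 0.43 and the kinase gene MINK1 at -0.31 also passed and are named after their values were seen. The 3 WWC paralogs thus did not move together, nor did TAOK1 and TAOK3. MAP4K4 had 16221, 18003 and 18022 normalized counts in the libraries labelled FOXD1null, against 10913, 11475 and 11630 in 786-O. WWC2 had 1165, 1193 and 1254 in the libraries labelled FOXD1null, against 2248, 2066 and 2191 in 786-O. NF2 had 5786, 4071 and 4222 in the libraries labelled FOXD1null, against 6669, 6673 and 6503 in 786-O.

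None of the 5 core genes of the kinase cassette passed with all 6 libraries by limma, edgeR or DESeq2, and 0 of 5 had an unadjusted p under 0.05 by any of these. Over all genes, 33.4% passed by limma in either direction, and 5675 and 5848 of 16901 passed by edgeR and DESeq2. The share of all genes at an unadjusted p under 0.05 was not counted. The MST kinase genes STK3 and STK4 stood at 0.13 (95% confidence interval -0.09 to 0.35) and 0.05 (-0.19 to 0.29), their adaptor SAV1 at -0.30 (-0.65 to 0.05), and the LATS kinase genes LATS1 and LATS2 at -0.23 (-0.57 to 0.10) and -0.21 (-0.50 to 0.08). Without replicate 1 labelled FOXD1null STK3 passed at 0.22 and STK4 at 0.17 (adjusted p = 0.0027 and 0.0037, limma, the lowest of their alternatives, which reached 0.80 and 0.95), and 7 genes of the list were higher and 5 lower, where 27.4% and 27.7% of all genes were. LATS1, LATS2 and SAV1 moved to -0.05, -0.06 and -0.13 without that library. Calls of WWC3, TAOK1, NF2 and MINK1 were lost with other single libraries left out. WWC3 no longer passed without any 1 library other than replicate 1 labelled FOXD1null (log2 fold changes of 0.40 to 0.53, adjusted p = 0.12 to 0.15, limma, within 7.4e-10 to 0.15 over its alternatives). TAOK1 no longer passed without any 1 of the 786-O replicates (-0.55 to -0.52, adjusted p = 0.071 to 0.084, limma, within 1.5e-06 to 0.084). NF2 no longer passed without any 1 of the 786-O replicates or replicate 2 labelled FOXD1null (-0.53 to -0.42, adjusted p = 0.050 to 0.060, limma, within 4.9e-10 to 0.060). MINK1 no longer passed without any 1 of the 786-O replicates or replicate 3 labelled FOXD1null (-0.33 to -0.26, adjusted p = 0.064 to 0.12, limma, within 0.0017 to 0.12). Without each of the 786-O replicates 1, 2 and 3 the list had 4 genes called in place of 8. Over all genes, 3617, 3992 and 3627 were then called in place of 5639.

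Among 8 genes of LIM proteins and STRIPAK subunits that oppose MST or LATS, 1 passed lower (17.1% of all genes did) and 7 did not pass, and the median was -0.05. The lower gene was WTIP, a LIM protein that binds LATS, at -1.63 (adjusted p = 0.0049, limma), a low RNA with 34.5, 14.1 and 27.2 normalized counts in the libraries labelled FOXD1null, against 82.6, 76.2 and 69.0 in 786-O. Without replicate 1 labelled FOXD1null 2 of the 8 were higher and 1 lower, where 27.4% and 27.7% of all genes were. Of the 4 measured partners of YAP, TAZ or TEAD, AMOTL1, a paralog of AMOTL2 that binds YAP, passed at -0.72 (adjusted p = 7.4e-04, limma), with 1020, 1222 and 1176 normalized counts in the libraries labelled FOXD1null, against 1939, 1730 and 1944 in 786-O. VGLL4, which competes with YAP for TEAD, stood at -0.11 (95% confidence interval -0.37 to 0.16) and at 0.03 without replicate 1 labelled FOXD1null. AMOT, the third angiomotin gene, stood at -0.20 and did not pass, and at -0.04 without that library. The atypical cadherins FAT1 and FAT2, whose Drosophila relative Fat acts upstream of Hippo, were the 2 of 4 measured FAT and DCHS genes that passed, both lower, where 17.1% of all genes were. FAT1 had 3173, 3855 and 4190 normalized counts in the libraries labelled FOXD1null, against 7427, 6926 and 7479 in 786-O, a log2 fold change of -0.97 (adjusted p = 3.3e-04, limma). FAT2 had 55.0, 35.4 and 29.1 in the libraries labelled FOXD1null, against 231, 180 and 214 in 786-O, a log2 fold change of -2.40 (adjusted p = 2.3e-04, limma).

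Of 17 other genes known as YAP or TAZ targets, 4 passed higher, 3 passed lower and 10 did not pass, near the 16.3% and 17.1% of all genes, and the median was -0.01, as over all genes. The 4 higher genes changed more, in size, than any of CCN1, CCN2, ANKRD1 and AMOTL2. F3, which encodes tissue factor of blood coagulation, had 2963, 4087 and 4155 normalized counts in the libraries labelled FOXD1null, against 796, 1092 and 968 in 786-O, a log2 fold change of 1.97 (adjusted p = 9.8e-05, limma). NT5E, the ectonucleotidase CD73, passed at 1.94 (9.0e-05) and GADD45A, a stress-response gene, at 1.36 (2.5e-05), with 5441, 5079 and 5151 normalized counts for GADD45A in the libraries labelled FOXD1null, against 1870, 2156 and 2069 in 786-O. NUAK2, a kinase gene named after its values were seen, passed at 1.09. The lower genes were CCDC80, a matrix protein gene, at -0.76 (adjusted p = 0.012, limma), the insulin-like growth factor binding protein gene IGFBP3 at -0.59 (0.0062) and ARHGEF17 at -0.51 (0.0011). Without replicate 1 labelled FOXD1null 7 of the 17 were higher and 4 lower, where 27.4% and 27.7% of all genes were. LATS2 and PTPN14, which are targets as well as regulators, stand in this list too and did not pass.

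SRF and its coactivators of the MRTF family share targets with YAP and TAZ in contractile cells. Of 14 genes of this group, 2 passed higher, 3 passed lower and 9 did not pass, near the 16.3% and 17.1% of all genes, and the median was 0.07. FHL1, a LIM domain protein gene, passed at 0.62 (adjusted p = 0.0015, limma) and the tropomyosin gene TPM2 at 0.37 (0.025). The smooth muscle actin gene ACTA2 passed at -0.51 (0.020), the coactivator gene MRTFA at -0.44 (0.0041) and the LIM gene FHL2 at -0.38 (0.028). SRF stood at 0.03 (95% confidence interval -0.14 to 0.20). The number of genes called in this group ran from 2 to 12 with single libraries left out, the 12 without replicate 1 labelled FOXD1null, 2 without replicate 2 labelled FOXD1null or 786-O replicate 2 or 3, and 3 without replicate 3 labelled FOXD1null or 786-O replicate 1. Of the 12, 6 were higher and 6 lower, where 27.4% and 27.7% of all genes were. Over all genes, 3617 to 9296 were called with single libraries left out. TPM2 and FHL2 no longer passed without any 1 library other than replicate 1 labelled FOXD1null (adjusted p = 0.054 to 0.11 for TPM2 and 0.084 to 0.098 for FHL2, limma, within 0.0025 to 0.11 and 7.8e-09 to 0.098 over the alternatives), nor ACTA2 without replicates 2 or 3 of either group (0.059 to 0.089, within 0.0068 to 0.089). Of the relatives of CCN1, CCN2 and ANKRD1, 3 of 6 were measured. CCN3, which encodes a matricellular protein, had 16.2, 10.1 and 3.88 normalized counts in the libraries labelled FOXD1null, against 60.3, 86.1 and 52.4 in 786-O, a log2 fold change of -2.75 (adjusted p = 0.0025, limma), while the other 2 did not pass. Of these ANKRD23, named after its values were seen, stood at -0.71 and passed at -0.84 without replicate 1 labelled FOXD1null (adjusted p = 0.029, limma, the lowest of its alternatives, which reached 0.27).

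**Figure D5:**
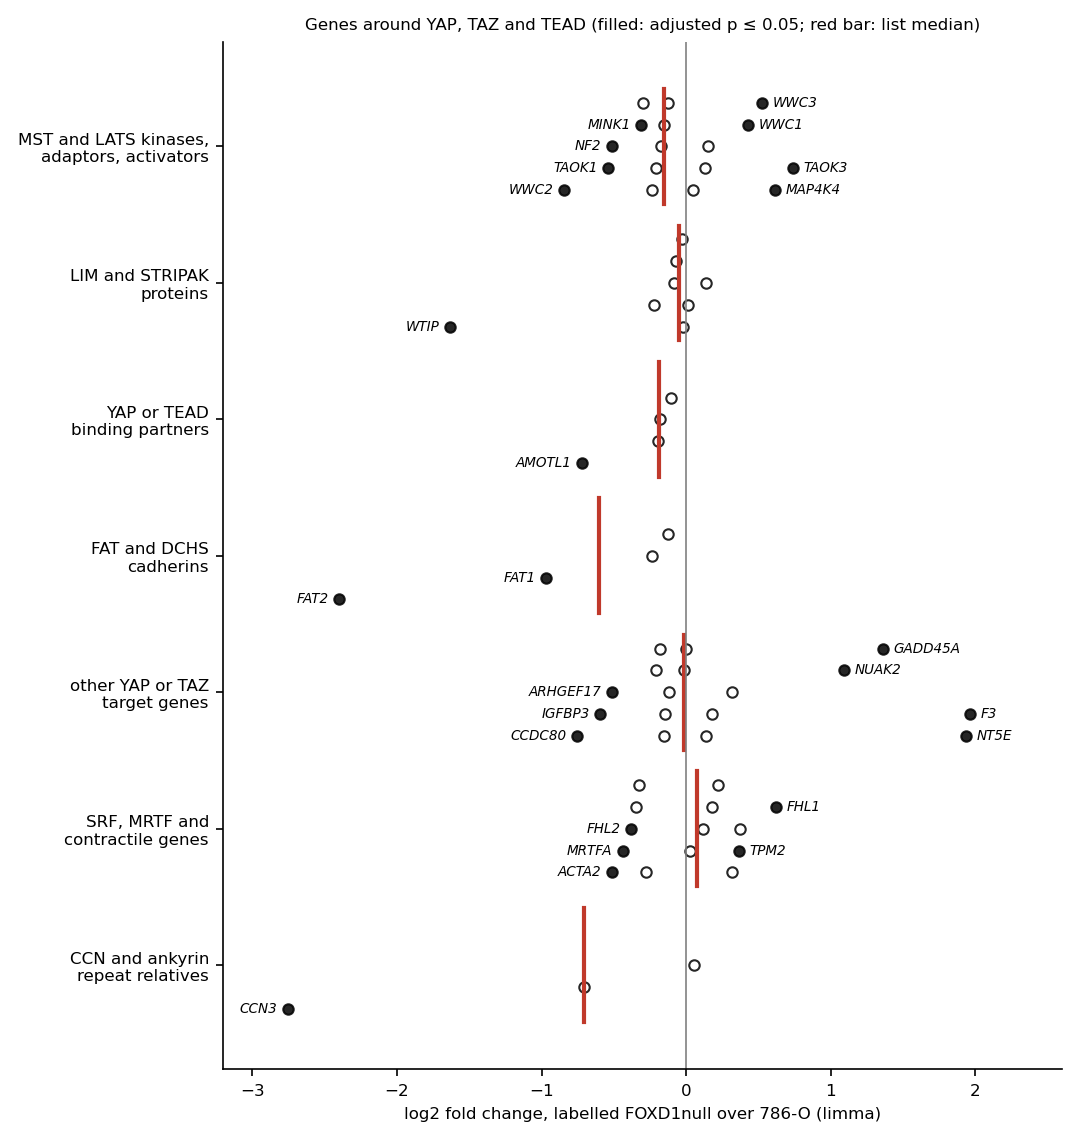
Log2 fold change (horizontal axis, FOXD1null minus 786-O) for the measured genes of 7 lists around YAP, TAZ and TEAD (rows, with points spread vertically for legibility), filled and named where the adjusted p from limma is at or under 0.05, with a red bar at each list's median. F3, NT5E, GADD45A and NUAK2 lie above 1, while FAT2, WTIP and CCN3 lie below -1.

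Over the 6 libraries, the RNAs whose levels ran most like that of WWTR1 among 11804 genes with a mean of at least 100 were TM4SF18, EFNA5 and PLEKHA4, with Pearson correlations of 0.9997, 0.9992 and 0.9991. For CCN1 they were ELFN1, VWDE and MRPS30, and for CCN2 MAP2, PTPRG-AS1 and SYNJ2BP, with correlations of 0.996 and above. Among the 9 genes, WWTR1 ran with CCN2 at 0.976, with AMOTL2 at 0.972 and with CCN1 at 0.898, and with YAP1 at 0.00. These points are the same 6 libraries of 2 lines, so a difference between the lines alone gives a high value, and 1503 of the genes ran closer to CCN1 than WWTR1 did.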

How the data were processed

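RNA of 6 libraries, 3 per line, was sequenced in paired reads. Per the labels and the study's methods, the authors used Trimmomatic 0.36 for trimming, STAR 2.5.2b for alignment to hg38 and featureCounts for unique reads per gene, introns excluded. Neither the annotation release nor the strand setting is stated in the sources used here. The deposited signal per library is a normalized count, which the authors made by dividing each count by 1 DESeq2 size factor per library (0.928, 0.990 and 1.03 for FOXD1null, 0.896, 1.10 and 1.09 for 786-O). The deposited table also holds the authors' group means, log2 fold changes, p-values and the difference of means (an other value), none of which were used.

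Ensembl identifiers gave symbols for 15333 genes and positions in GENCODE 44 for 16747. Lines were compared with limma 3.58.1 in R 4.3.3 (trended prior, two-sided) on log2(normalized count + 1), with no covariate. It took the 16901 genes whose mean reached 10 and left out 21, with Benjamini-Hochberg adjustment and a threshold of 0.05. Whole reads were recovered for 100% of values within 0.001 of a read, and on these edgeR 4.0.16 (quasi-likelihood) called 5675 genes and DESeq2 1.42.0 called 5848, against 5639 for limma. Only the limma step was tried on simulated data, which held far fewer changed genes than were called here. Further alternatives were the pseudocount, the filter, the scaling, a replicate block, leaving out each library and removal of the exon length trend. Exact permutation tests, motif searches and figures used Python 3.11.15 with pandas 2.3.3, numpy 2.4.6, scipy 1.17.1 and matplotlib 3.10.9.

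The genes and lists were chosen with earlier results of these data known. Named are the 10 genes, up to 3 called genes with the largest change in each direction of each list, the core genes LATS1, LATS2, STK3, STK4, SAV1, NF2, VGLL4 and SRF, FOXD1, and for WWTR1, CCN1 and CCN2 the 3 genes of highest Pearson correlation among those whose mean reached 100.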

Additional observations from a re-analysis of the deposited data

How the results depend on the processing

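WWTR1, CCN1, CCN2 and AMOTL2 passed lower under every alternative run, in ranges of -0.88 to -0.77, -0.74 to -0.49, -0.46 to -0.33 and -0.65 to -0.53. Without replicate 1 labelled FOXD1null YAP1 turned to 0.14, TEAD1 to 0.06 and ANKRD1 to -0.13, and TEAD4 passed at -0.23, against 0.012 without replicate 3 labelled FOXD1null. With single libraries left out YAP1 ran from -0.11 to 0.14, TEAD1 from -0.27 to 0.06, TEAD4 from -0.23 to 0.012 and ANKRD1 from -0.13 to 0.17. ANKRD1 stood at -0.041 with equal library totals, a scaling that moved the median of all genes to -0.10 and gave 2040 higher and 3878 lower genes, against 2751 higher and 2888 lower, and at -0.0005747 with the exon length trend removed. Equal totals also turned STK4 to -0.044 and SRF to -0.063. Left-out libraries turned STK4 to -0.01 (without replicate 2 labelled FOXD1null) and -0.015 (without replicate 3), VGLL4 to 0.030 and SRF to -0.010 (without replicate 1) and SRF to -0.014 without 786-O replicate 2, in ranges of -0.18 to 0.030 for VGLL4, -0.014 to 0.076 for SRF and -0.015 to 0.17 for STK4. The cause of these turns was not tested. Over all genes, 3617 to 9296 passed with single libraries left out, the highest without replicate 1 labelled FOXD1null, and 3617 and 3627 without 786-O replicates 1 and 3. With a mean of at least 50 no relative of CCN1, CCN2 and ANKRD1 was called, since CCN3 was then not tested. A replicate block called 4880 genes and the same number of the 9 genes, 4. Same-numbered libraries did not deviate together (correlations of -0.25, -0.23 and 0.01), so the numbers were not taken as pairs. The block ended the calls of ACTA2 and MINK1 (adjusted p = 0.055 and 0.057, limma). Calls of named genes were lost 35 times over the alternatives, by WWC3, TAOK1, NF2, MINK1, TPM2, ACTA2 and FHL2. Scaling ended the call of WWC3 (adjusted p = 0.092 with equal totals and 0.053 with TMM, limma) and TPM2 (0.073 with equal totals). DESeq2 called 8 of the SRF and MRTF genes and equal totals 2 of the LIM and STRIPAK genes, against 5 and 1. With 3 libraries per line small changes can be missed, and 1 of 3 libraries labelled FOXD1null stands apart. Protein sequences were not analysed here.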
